A study of Oryza sativa with 12 samples.

Results

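Leaves of rice in which the aquaporin gene OsPIP2-1 was overexpressed were compared directly with leaves in which it was knocked out. The comparison takes 4 of the 12 libraries of the study, 2 of the overexpression line (OE) and 2 of the knockout line (KO), and covers all 38978 annotated genes. In OE the maize ubiquitin promoter, active in most tissues, drives OsPIP2-1 fused to a 3xMyc tag, so the line carries the transgene beside the endogenous gene. The KO carries a CRISPR-Cas9 edit of OsPIP2-1 and no T-DNA. Both are in the indica variety Pusa Basmati-1, and leaves were taken 2.5 months after the regenerated plants had moved to the greenhouse. The wild-type pair grown as the control for these lines (WT) is given beside them, and the study holds a second set of WT, OE and KO for OsPIP2-7. The labels give neither the number of independent lines nor whether the libraries of a pair came from separate plants, and a p-value here therefore speaks to library-to-library spread, part or all of which may be technical.

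Plasma membrane intrinsic proteins (PIPs) are the aquaporins of the plant cell membrane. They form tetramers that pass water, and some members pass hydrogen peroxide, carbon dioxide or other small solutes. PIP1 proteins commonly reach the membrane in mixed tetramers with PIP2 proteins, and in leaves the family takes part in the control of water flow between veins, mesophyll and the air spaces.

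Library totals were 38819237 and 40666127 counts in OE and 33436248 and 27433035 counts in KO, so the OE libraries were the deeper ones. Levels are given as CPM, the counts scaled by TMM factors to a common library size, and differences are log2 values of OE minus KO. Nuclear leaf mesophyll markers were abundant in both lines, with 6060 and 6008 CPM of the chlorophyll a/b-binding gene CAB1R in OE and 9186 and 9960 CPM in KO. The plastid genome took 0.547% and 0.541% of counts in OE against 0.714% and 0.695% in KO, and 0.375% and 0.380% in WT. The most abundant gene was the metallothionein gene OsMT3a, at 5.19% and 7.12% of counts in OE and 4.15% and 4.28% in KO. Of 22870 genes tested, 12877 differed between the lines (56.3%) by the edgeR quasi-likelihood test with Benjamini-Hochberg adjustment at 0.05. In OE 6619 were higher (28.9%) and in KO 6258 (27.4%), and the median difference over all tested genes was -0.0045. This median and the near-even split depend on the scaling, which sets the bulk of genes near no difference. Most differences were small: 68.0% of tested genes lay within 1.5-fold, while 2459 genes (10.8%) were higher in OE and 1411 (6.17%) higher in KO by at least 2-fold. The excess in OE grew with size, to 938 against 406 genes at 4-fold and 217 against 65 at 16-fold. Among called genes that reached 1000 CPM the balance was the other way, with 28 higher in OE and 84 higher in KO. The WT pairs of the study share variety, tissue, age and genotype label, and the column headers mark them as separate sets. Between these pairs 13907 of 24556 genes (56.6%) passed the same test and 3899 (15.9%) did so with at least a 2-fold difference. Each line is represented by a single pair, so the effect of OsPIP2-1 cannot be told apart from other differences between the plants or their handling.

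**Figure D1:**
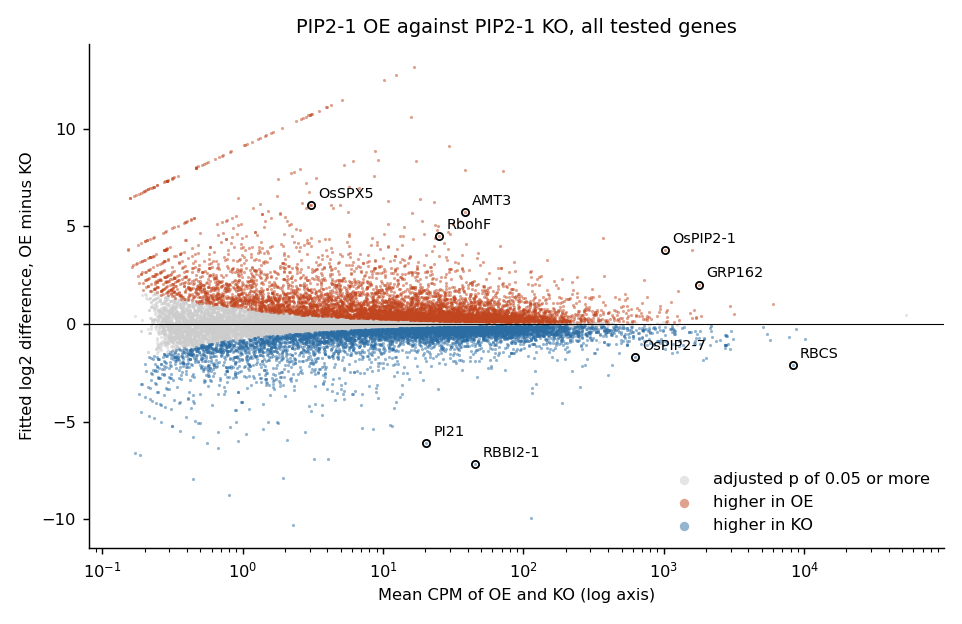
Fitted log2 difference (OE minus KO) of every tested gene against its mean CPM over both lines, on a log axis; colours mark the 6619 genes higher in OE and the 6258 higher in KO, and circles mark named genes. The genes more than 16-fold apart lie mostly above the zero line, and OsPIP2-1 lies at 3.79 near the abundant end. Fitted differences of genes with a group at or near 0 counts depend on the prior count and are no bounds.

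OsPIP2-1 itself was far higher in OE than in KO. The gene, Os07g0448800, spans 15406442 to 15409748 on chromosome 7 of IRGSP-1.0, with 3 exons on the plus strand. Its level was 1926 and 1874 CPM in OE, 134.5 and 140.9 CPM in KO, and 131.5 and 132.5 CPM in WT. Both OE libraries lay far above the other libraries, and the KO libraries lay just above the WT pair. The difference was 3.79 (SE 0.04; edgeR, adjusted p = 1.46e-32), and it ran from 3.75 to 3.82 over the alternative fits. Reads of the transgene and of the endogenous gene are counted together. An edit of a few bases need not change a gene count, so the KO label was not tested by this level. The authors' deposited table gives a log2 ratio of KO over OE of -1.29 for the same gene (q = 0.00033).

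Every PIP gene that could be tested passed the test, against 56.3% of all tested genes. Of the 11, 6 were higher in OE and 5 higher in KO, with a median of 1.18, the overexpressed gene included. The 6 also include OsPIP2-3 and Os07g0448400, which may hold reads of the transgene. The median is the value of the low-abundance OsPIP2-5, so it does not describe the family. The deposited names give the family only or an older letter name, such as OsPIP2a for OsPIP2-1. The numbers used here were assigned to loci from the usual rice nomenclature, not read from the files. OsPIP1-3, a PIP1 gene, stood at 149 and 152 CPM in OE, 23.1 and 23.7 CPM in KO, and 140 and 127 CPM in WT. Its KO libraries lay apart below both other pairs, and OE exceeded KO by 2.69 (SE 0.05; edgeR, adjusted p = 3.21e-27). OsPIP2-7, the other aquaporin targeted in the study, went the opposite way, with 292 and 295 CPM in OE against 935 and 989 CPM in KO, and 338 and 335 CPM in WT. The KO pair was the high one there, and the difference was -1.71 (SE 0.04; edgeR, adjusted p = 3.77e-25).

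OsPIP2-3 (Os04g0521100) and the PIP2 locus Os07g0448400, which lies upstream of OsPIP2-1 on the same chromosome, were higher in OE too. OsPIP2-3 had 88.4 and 81.3 CPM in OE, 9.53 and 6.77 in KO, and 6.25 and 7.11 in WT. Os07g0448400 had 70.7 and 64.1 CPM in OE and 6.51 and 5.27 in KO. Multiply aligned reads entered the counts, so these 2 loci may hold reads of the transgene, and their differences of 3.36 and 3.50 are uncertain. In the authors' deposited table OsPIP2-3 has a log2 ratio of KO over OE of -0.31 with q = 1.0, and Os07g0448400 has one of -0.82. OsPIP2-4 was higher in OE by 1.97, at 8.12 and 7.53 against 1.96 and 2.04 CPM. For this gene the authors' deposited table gives a log2 ratio of KO over OE of -0.98 (q = 0.194), and read sharing was not tested. OsPIP2-5 was low, at 1.09 and 1.48 CPM in OE against 0.654 and 0.462 CPM in KO, and its call (1.18) was lost with DESeq2 (adjusted p = 0.0757) and without OE replicate 2 (edgeR, adjusted p = 0.154). OsPIP2-6 (-0.79) and OsPIP1-1 (-0.47) were higher in KO. The small differences of OsPIP2-2 (-0.13) and OsPIP1-2 (-0.14) lost their calls without either OE library (edgeR, adjusted p from 0.0577 to 0.215), and that of OsPIP2-2 also with DESeq2 (adjusted p = 0.0642).

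Per kilobase of transcript, OsPIP2-1 was the most abundant PIP gene in OE and took 44.8% and 44.7% of the summed PIP level there. In KO it took 4.37% and 4.26%, and in WT 7.15% and 7.53%. OsPIP2-7 led in KO at 771 CPM per kb, where OsPIP2-1 was the fifth at 106 CPM per kb. OsPIP1-2 and OsPIP1-1 held the second and the third place in both lines. The summed level without OsPIP2-1 was 1832 and 1786 CPM per kb in OE, 2271 and 2440 in KO, and 1317 and 1254 in WT. The remaining PIP transcripts together were thus more abundant in KO than in OE in these libraries. This was no rise across the family. The largest gap among them was that of OsPIP2-7, at 235 CPM per kb in OE and 771 in KO, and genes such as OsPIP1-3 (115 against 17.8) were higher in OE. Outside the PIP family, 4 of 14 tested aquaporins were higher in OE and 6 in KO (median -0.26). Among these the tonoplast aquaporins OsTIP4-1 (-0.84), OsTIP1-2 (-0.59), OsTIP1-1 (-0.57) and OsTIP2-2 (-0.37) were higher in KO, and the silicon transporter gene LSI6 was higher in OE by 0.66.

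**Figure D2:**
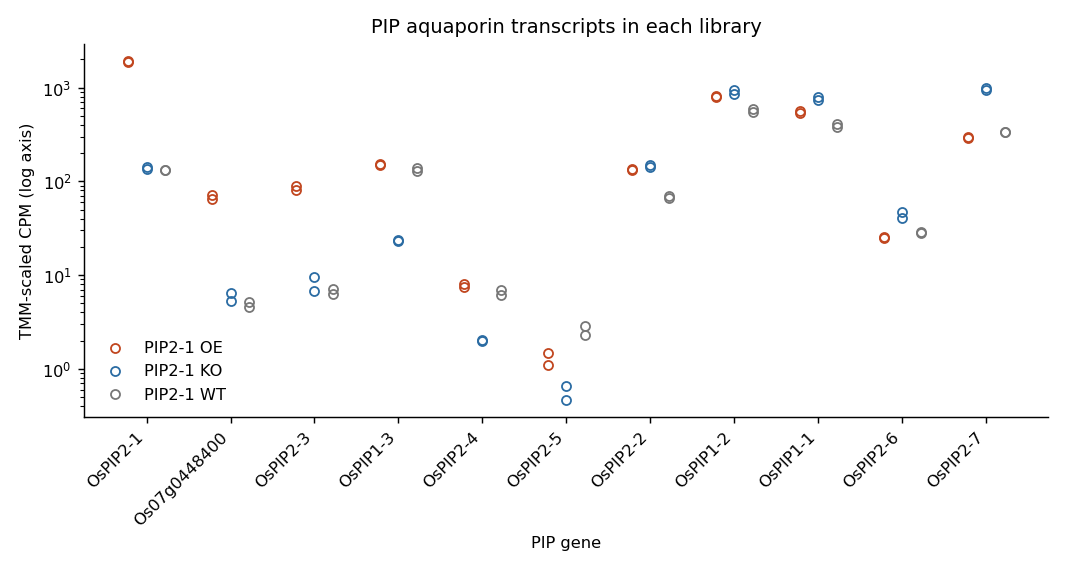
Level of each tested PIP gene in the OE, KO and WT libraries of the OsPIP2-1 experiment, in TMM-scaled CPM on a log axis, with 1 circle per library and genes ordered by their log2 difference. OsPIP2-1 stands near 1900 CPM in OE and under 141 CPM elsewhere, while OsPIP2-7, at the right end, is highest in KO.

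The surroundings of OsPIP2-1 were examined because the edit, or linked sequence, could act nearby. Within 250 kb lay 35 other genes, of which 20 were tested, 8 were higher in OE (40%, against 28.9% of all genes) and 3 higher in KO (15%, against 27.4%). Those higher in OE include OsPIP2-4, OsPIP2-5, Os07g0448400 and Os07g0448600, a gene on the other strand within Os07g0448400. These are PIP2 genes or overlap one, so they are not independent observations, and Os07g0448400 may hold reads of the transgene. Whether the share of 40% has to do with the surroundings was not tested. Of the 11 calls, 5 were lost with DESeq2, 3 of them higher in OE and 2 higher in KO. The hexokinase gene OsHXK1 (Os07g0446800, chromosome 7, 15293180 to 15294805) stood out, at 11.8 and 12.5 CPM in OE, 0.0623 and 0 in KO, and 0 in both WT libraries. It was present in OE and close to absent elsewhere, with a ratio of OE over KO of 353 (95% exact counting interval 97.5 to 2919). Over whole chromosomes the called share ran from 52.9% on chromosome 12 to 57.4% on chromosome 9, and it was 56.6% on chromosome 7.

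The genes furthest apart were next taken in each direction among those with a name and at least 5 CPM in the higher line. On the OE side stood the zinc transporter gene OsZIP9, at 6.34 and 7.01 CPM against 0.0623 and 0 in KO, a ratio of 194 (95% exact counting interval 53.5 to 1607). OsPR1 (Os07g0129300), a pathogenesis-related gene, had 9.66 and 10.8 CPM in OE and no count in KO, which puts OE at least 199-fold higher when 3 counts are taken as the limit for the KO pair. The KO pair was empty or nearly so for both genes, while WT held 3.183 and 3.998 CPM of OsZIP9.

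AMT3 (Os03g0838400), of the ammonium transporter family, stood at 77.1 and 72.5 CPM in OE, 1.12 and 1.77 in KO, and 53.6 and 53.6 in WT. Here KO was the pair that stood apart, and the difference was 5.72 (SE 0.11; edgeR, adjusted p = 1.36e-26). OsSub8, of the subtilisin-like protease family, had 46.5 and 44.7 CPM in OE, 0.529 and 0.692 in KO, and 2.39 and 2.09 in WT, a difference of 6.24. In that gene OE stood apart from both other pairs. The acyltransferase gene OsAT5 (5.26), with 71.6 and 66.0 CPM in OE, and the glycine-rich protein gene GRP (5.13), with 60.9 and 61.1 CPM, had WT levels between the lines. OsRCI2-9 (6.28), OsBDG1 (6.17), the SPX-domain gene OsSPX5 (6.07), YR48 (5.95) and the auxin-response gene OsSAUR26 (5.72) completed this group at 4.74 to 21.6 CPM in OE and at most 0.374 CPM in KO. For YR48 the authors' deposited table gives a log2 ratio of KO over OE of only -0.66 (q = 0.290), so the size of its difference is uncertain.

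On the KO side RBBI2-1 (Os01g0124000), which encodes a Bowman-Birk inhibitor of proteases, led, at 0.533 and 0.716 CPM in OE, 87.3 and 93.5 in KO, and 0.909 and 0.586 in WT. Its KO libraries stood far above all 4 others, with a difference of -7.16 (SE 0.11; edgeR, adjusted p = 1.06e-29). PI21, known for an allele that slows blast disease, had 0.406 and 0.741 CPM in OE, 37.5 and 42.8 in KO, and 1.326 and 1.401 in WT, a difference of -6.11. The glucanase gene OsPR2 (Os01g0944700; -5.24), the chitinase genes Cht4 (Os04g0493400; -5.18) and Cht5 (-4.08), OsPR1#012 (-4.65) and OsPR4 (-4.32) were also higher in KO. The remaining genes of this group were the germin-like gene OsGLP1-1 (-4.46), the prolamin gene Prol-25 (-4.20), the lipid transfer protein gene OsLTPd5 (-4.16), the GDSL lipase gene OsGELP84 (-4.14) and the diterpene cyclase gene OsCPS2 (-3.82). In each of these 12 genes both WT libraries lay below both KO libraries.

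Genes at high levels were considered apart, because most large folds concern rare transcripts. Besides OsPIP2-1, the most abundant genes at least 2-fold higher in OE were MTd (1.02), at 7974 and 8132 against 3789 and 4160 CPM, GRP162 (2.01), a glycine-rich protein gene, at 2939 and 2783 against 705 and 719.5 CPM, and the catalase gene CATA1 (1.68), at 1947 and 1927 against 581 and 627 CPM. On the KO side the small-subunit gene of Rubisco RBCS (Os12g0274700) had 3155 and 3050 CPM in OE, 12695 and 14302 in KO, and 992 and 988 in WT. The KO level was the highest and the WT level the lowest, and the difference was -2.12 (SE 0.05; edgeR, adjusted p = 1.15e-23), with near-identical copies that may share reads. BETACA1, a carbonic anhydrase gene (-1.27), the light-harvesting gene ASCAB9-A (-1.26) and PsbO of photosystem II (-1.04) followed.

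Gene groups were described by counting members, beside the 28.9% of all tested genes that were higher in OE and the 27.4% higher in KO. Phosphate starvation genes, which act in phosphate sensing, uptake and recovery, were mostly higher in OE: 34 of 56 tested members, 26 of them by at least 2-fold, against 13 higher in KO, with a median of 0.79. Without OE replicate 1 the members higher in KO were 8. OsSPX1, an SPX-domain sensor that restrains the phosphate response, stood at 217 and 216 CPM in OE, 41.5 and 40.8 in KO, and 33.1 and 32.9 in WT (2.40, SE 0.05; edgeR, adjusted p = 3.21e-27). OsSPX6, of the same family, had 192 and 186 CPM in OE and 34.6 and 37.8 in KO (2.39). In both genes OE stood apart, and KO and WT were both low.

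The acid phosphatase gene OsACP1 (2.19) and the phosphate transporter gene PT8 (1.97) showed 266 and 273 against 56.0 and 62.8 CPM, and 179 and 187 against 46.6 and 47.3 CPM. The non-coding RNA OsIPS1, an inhibitor of the phosphate-responsive miR399, was added after its values were seen and had 11.5 and 9.53 CPM in OE against 0.623 and 0.500 in KO (4.21). Members on the KO side differed less: OsSPX-MFS1, a vacuolar phosphate transporter, by -1.67, OsPT14 by -0.60, OsPT21 by -0.49 and PHR2, the main activator of the response, by -0.47. The summed level of the list was 4276 and 4248 CPM in OE, 2692 and 2630 in KO, and 2342 and 2347 in WT.

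Of 37 nitrogen uptake and recycling genes 17 were higher in OE and 10 in KO (median 0.19). The asparaginase gene OsASNase2 had 129 and 128 CPM in OE, 7.85 and 8.46 in KO, and 1406 and 1348 in WT. Both lines lay below WT, and OE exceeded KO by 3.98 (SE 0.06; edgeR, adjusted p = 3.89e-29). TOND1, linked to growth on low nitrogen, had 45.98 and 45.1 against 4.17 and 4.15 CPM (3.45), and OsAMT3 (Os02g0550800), another ammonium transporter gene, 49.0 and 51.9 against 10.49 and 9.69 CPM (2.32). The ureide permease gene OsUPS1 was higher in KO, at 25.3 and 24.1 against 1.98 and 1.70 CPM (-3.74). Nitrate reductase genes OsNR1 (-0.85) and OsNIA2 (-0.84), which had nearly equal values and may share reads, and the plastid glutamine synthetase gene OsGLN2 (-0.43) were also higher in KO.

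Metal ion genes were split, 19 higher in OE and 17 in KO of 58 (median 0.03), but 13 of the former and 1 of the latter differed by at least 2-fold. The KO count was 10 with DESeq2 and 11 without OE replicate 1. The zinc and iron transporter family members OsZIP8 (2.47), OsZIP10 (3.05) and OsZIP2 (1.54) were higher in OE, as was OsNAAT1 (2.16), which acts in the synthesis of iron-chelating mugineic acids, at 365 and 363 against 83.3 and 79.5 CPM. The ferritin genes OsFER1 (-0.44) and FER2 (-0.37), near-identical iron stores, and the metal pump gene OsHMA6 (-0.76) were higher in KO.

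WRKY and NAC transcription factors take part in defence and drought responses. Of 66 WRKY genes 39 were higher in OE, 28 by at least 2-fold, and 10 in KO (median 0.82). OsWRKY9 had 30.8 and 31.8 CPM in OE, 1.43 and 1.61 in KO, and 25.6 and 24.58 in WT (4.37, SE 0.12; edgeR, adjusted p = 3.98e-23), so KO was the pair apart. OsWRKY24 (3.54), OsWRKY69 (2.49) and WRKY13 (1.68) went the same way, and OsWRKY30 (-1.87) and WRKY45 (-1.02), which mediates salicylic acid responses, the other way. The near-identical OsWRKY95 (-1.61) and OsWRKY104 (-1.45) were also higher in KO by the counts. The authors' deposited table has the opposite sign for both, with log2 ratios of KO over OE of -0.79 for OsWRKY95 (q = 0.000897) and -0.48 for OsWRKY104 (q = 1.0).

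Of 55 NAC genes 32 were higher in OE and 8 in KO (median 0.51), the latter count being 4 with DESeq2, 3 without OE replicate 1 and 5 without OE replicate 2. ONAC066 had 22.6 and 22.2 CPM in OE against 1.81 and 2.27 in KO (3.47). SNAC1, a stress-response NAC gene of guard cells, had 26.2 and 26.7 CPM in OE, 4.14 and 4.19 in KO, and 51.0 and 52.3 in WT (2.67). NAC22 (2.41) and NAC95 (1.93) were among the others. In SNAC1 both lines lay below WT, with KO the lower.

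Respiratory burst oxidases (Rboh) make superoxide at the plasma membrane, and 5 of 7 tested were higher in OE and 1 in KO (median 0.92). RbohF had 50.4 and 46.3 CPM in OE, 1.71 and 2.61 in KO, and 10.9 and 9.73 in WT. OE was the highest pair and KO the lowest, with a difference of 4.51 (SE 0.11; edgeR, adjusted p = 2.44e-23). The others were rbohG (1.99), OsrbohI (1.10), rbohC (0.81) and, chosen after its values were seen, a low-abundance locus also named rbohA (Os01g0734200; 0.92), while the rbohA locus Os01g0734466 was higher in KO (-0.76).

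Phenylpropanoid and lignin genes, which supply wall phenolics, were listed after values had been seen. Of 31 tested, 19 were higher in OE, 13 by at least 2-fold, and 4 in KO (median 0.41). The KO count was 2 without OE replicate 2 and 2 without KO replicate 2. GH2, the cinnamyl alcohol dehydrogenase of the gold hull mutant, had 60.3 and 55.8 CPM in OE, 2.61 and 2.12 in KO, and 10.9 and 10.49 in WT (4.60, SE 0.10; edgeR, adjusted p = 9.79e-26). CYP84A5, of the family that hydroxylates lignin precursors, had 55.2 and 56.2 against 2.37 and 1.81 CPM (4.72), with WT at 17.4 and 16.1. In both genes WT lay between the lines. The entry enzymes followed, with phenylalanine ammonia-lyase OsPAL (Os02g0626400) higher by 2.32 and coumarate ligase 4CL3 by 1.84.

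Jasmonate genes, also listed after values had been seen, numbered 15 higher in OE and 3 in KO of 29 (median 0.32). OsLOX8, a lipoxygenase gene, had 88.9 and 87.3 CPM in OE, 7.01 and 7.38 in KO, and 79.6 and 71.0 in WT (3.62), and OsLOX1 (Os02g0194700) was higher in KO (-1.12). Heat shock proteins and factors were higher in OE for 22 and in KO for 8 of 40 (median 0.33), with only 6 and 2 of them at 2-fold. Their largest member was the heat shock factor gene HSFB1 (3.57), at 10.1 and 10.8 against 0.934 and 0.808 CPM, and the small heat shock protein gene OsHsp17.3 was higher in KO (-1.69). In bulk leaf tissue a smaller number of cells of a type and less RNA per cell cannot be told apart, here or in the groups below.

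**Figure D3:**
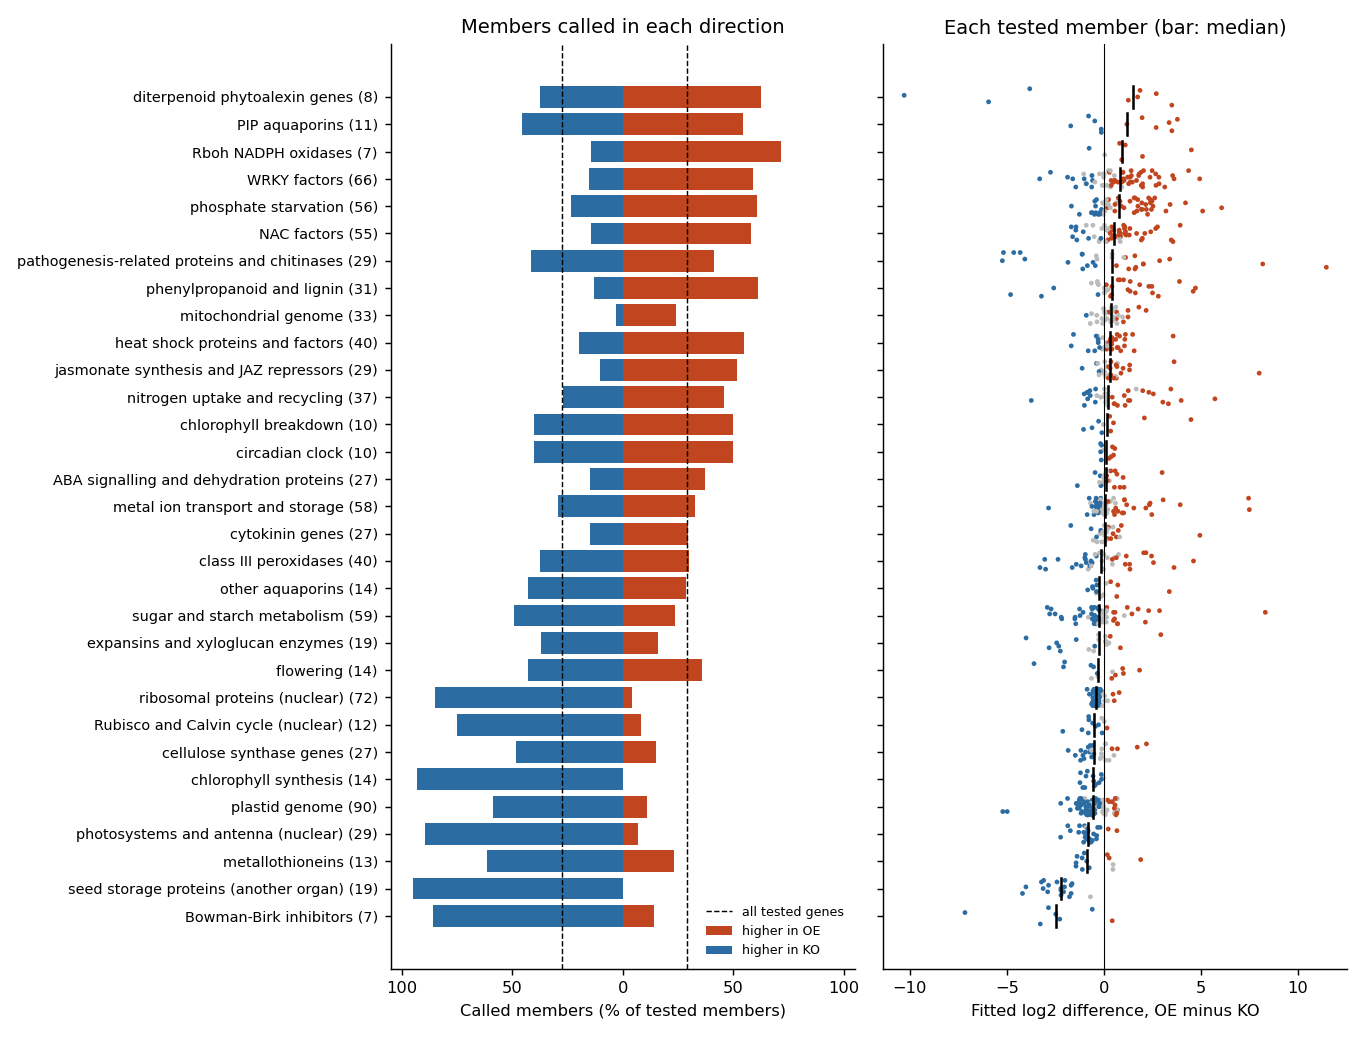
Left, the percentage of tested members of each gene group called higher in OE (right of zero) or in KO (left of zero), with the number tested in brackets and dashed lines at 28.9% and 27.4% for all tested genes. Right, the fitted log2 difference of each tested member, coloured where called, with a bar at the median. Medians run from above 1 in the diterpenoid and PIP genes to the Bowman-Birk inhibitors at -2.48. The PIP genes include OsPIP2-1 and loci that may hold its transgene reads, and the summed level of the diterpenoid genes was higher in KO. Differences of genes with a group at or near 0 counts are no bounds.

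Most photosynthesis genes were higher in KO. Of 29 nuclear photosystem and antenna genes 26 were higher in KO, 7 by at least 2-fold, and 2 in OE (median -0.84). The count in OE was 1 without OE replicate 2. PsbR of photosystem II had 891 and 955 CPM in OE, 3108 and 3030 in KO, and 777 and 966 in WT (-1.73, SE 0.04; edgeR, adjusted p = 5.69e-25). PsaE of photosystem I had 556 and 620 against 1416 and 1483 CPM (-1.30), and the antenna gene CAB2R 4165 and 4146 against 6880 and 7749 CPM (-0.81). KO lay apart above both other pairs in PsbR, and in PsaE and CAB2R the order was WT, OE and KO.

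Of 12 nuclear Rubisco and Calvin cycle genes 9 were higher in KO and 1 in OE (median -0.51), among them the small-subunit gene RbcS3 (-0.78) and the phosphoglycerate kinase gene OsPGK3 (-1.13). Chlorophyll synthesis genes were higher in KO for 13 of 14, 3 by at least 2-fold, and in OE for 0 (median -0.54). HEMA1, which encodes the committed enzyme of the pathway, had 253 and 262 CPM in OE, 550 and 546 in KO, and 64.6 and 64.3 in WT (-1.09). GUN4 (-1.24), OsCRD1 (-0.98) and OsChlH (-0.85), which act at the magnesium and cyclase steps, moved with it. WT was the lowest pair and KO the highest for these 4 genes.

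The plastid genome showed the same tendency, with 53 of 90 tested genes higher in KO, 18 by at least 2-fold, and 10 in OE (median -0.55). The neighbouring and overlapping photosystem II genes psbD (-1.27) and psbC (-1.05) are examples, with psbD at 116 and 116 CPM in OE against 296 and 263 in KO. Whether capture of plastid RNA differed between the libraries was not tested. With nuclear genes only, 12812 genes were called in all. Mitochondrial genes were higher in OE for 8 and in KO for 1 of 33 (median 0.37), with 4 higher in OE under DESeq2 and without OE replicate 2. Ribosomal protein genes, listed after values had been seen, were higher in KO for 61 of 72 and in OE for 3 (median -0.40), none by as much as 2-fold. OsRPL27.3 was the example with the smallest p, at 63.1 and 66.6 against 116 and 121 CPM (-0.87).

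Chlorophyll breakdown genes were split, 5 higher in OE and 4 in KO of 10 (median 0.13). The stay-green gene SGR, which starts chlorophyll removal, had 20.7 and 20.7 CPM in OE, 4.14 and 5.73 in KO, and 102 and 103 in WT (2.09). OsRCCR2, of a later step, was higher in OE by 4.49 at 4.13 and 4.52 against 0.156 and 0.231 CPM, and OsNYC4 was higher in KO (-1.05). Among 27 cytokinin genes 8 were higher in OE and 4 in KO (median 0.03), led by LOGL9 of the cytokinin-activating LOG family (4.95), at 27.7 and 26.7 CPM in OE, 0.654 and 1.15 in KO, and 45.1 and 44.9 in WT.

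Bowman-Birk inhibitors, small proteins that block serine proteases, were higher in KO for 6 of 7 tested, 5 by at least 2-fold, and in OE for 1 (median -2.48). The member higher in OE, RBBI2-3, lost its call without OE replicate 2 (edgeR, adjusted p = 0.117). Besides RBBI2-1, RBBI2-2 had 20.8 and 22.3 CPM in OE, 205 and 214 in KO, and 21.6 and 22.5 in WT (-3.28, SE 0.05; edgeR, adjusted p = 2.59e-29), RBBI3-1 4.67 and 4.71 against 33.2 and 35.1 CPM (-2.86), and OsBBI1 59.2 and 58.7 against 91.3 and 87.5 CPM (-0.60). OE lay close to WT for RBBI2-2 and RBBI3-1, and KO stood apart.

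Pathogenesis-related proteins and chitinases were divided evenly by count, 12 higher in OE and 12 in KO of 29, of which 11 and 9 by at least 2-fold (median 0.42). The members differed: OsPR2, Cht4, Cht5, OsPR4 and the glucanase gene Gns8 (-1.12) were higher in KO. RSOsPR10, a PR10 gene described from roots, was higher in OE, at 28.0 and 28.3 against 2.77 and 2.58 CPM (3.39), as were Cht11 (1.28) and Cht6 (1.60). Of 40 class III peroxidases 12 were higher in OE and 15 in KO (median -0.16), with prx62 furthest on the OE side at 12.1 and 10.05 against 0.498 and 0.385 CPM (4.62).

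**Figure D4:**
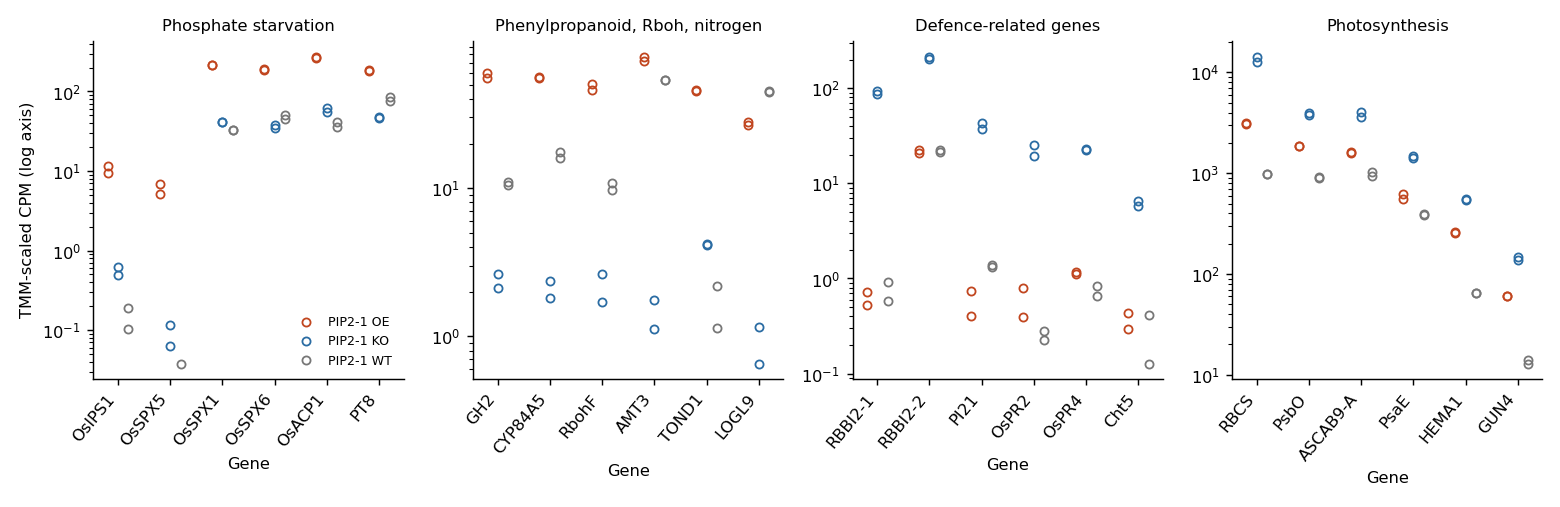
Level of 24 genes from 4 groups in each OE, KO and WT library, in TMM-scaled CPM on a log axis; the OsSPX5 library of WT at 0 is not drawn. In the phosphate panel and the panel of phenylpropanoid, Rboh and nitrogen genes OE stands above KO, in the defence-related and photosynthesis panels KO stands above OE, and the WT circles lie near OE, near KO, between them or outside them depending on the gene.

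Carbon and wall genes were mixed with a lean to KO. Of 59 sugar and starch genes 14 were higher in OE and 29 in KO, 7 and 12 by at least 2-fold (median -0.27). The sucrose exporter gene SWEET13 had 6.42 and 6.27 CPM in OE against 27.4 and 30.0 in KO (-2.17), and the sucrose transporter gene OsSUT1 (-1.23), OsSWEET1a (-1.49) and the trehalose-phosphate phosphatase gene OsTPP6 (-1.25) were also higher in KO. Monosaccharide transporter genes went the other way, with OsMST3 at 123.01 and 122.0 against 17.3 and 16.2 CPM (2.87) and OsMST4 higher in OE by 2.14. WT was nearer to OE than to KO for both of these genes, at 109 and 103 CPM and at 65.6 and 64.6 CPM.

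Cellulose synthase and related genes were higher in KO for 13 and in OE for 4 of 27 (median -0.52), with OsCesA8 (-1.19) and OsCslH1 (-1.08) on the KO side and OsCslH3 (1.72) and OsCslE6 (0.70) on the OE side. The summed level of that list was nonetheless higher in OE, 1486 and 1488 against 1050 and 1018 CPM. OsCslE6 contributed 820 and 821 against 522 and 489 CPM to these sums, and OsCslH3 345 and 350 against 103 and 109 CPM. Expansins and xyloglucan enzymes, which loosen walls, were higher in KO for 7 of 19, with OsXTH6 (-2.44) and OsXTH10 (-2.33) among them. The 3 called higher in OE fell to 0 with DESeq2 and without OE replicate 1, and to 1 without OE replicate 2 and without KO replicate 1. Metallothioneins were higher in KO for 8 and in OE for 3 of 13 (median -0.89). Their count in OE was 5 without any 1 of the 4 libraries. OsMT2b (-1.44), OsMT1a (-1.44) and OsMT2c (-1.02) were higher in KO and OsMT1b in OE (1.89), while OsMT3a, at 51105 and 71435 CPM in OE and 43237 and 45151 in KO, did not pass (edgeR, adjusted p = 0.226), and close copies may share reads.

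ABA signalling and dehydration genes were higher in OE for 10 and in KO for 4 of 27 (median 0.09), with the late embryogenesis gene OsLEA24 (1.04) and the ABA-activated kinase gene SAPK2 (0.67) on the OE side, and the KO count was 2 with DESeq2 and without OE replicate 2. Of 10 clock genes 5 were higher in OE and 4 in KO (median 0.13), all within 1.5-fold: OsZTL1 differed by 0.56, OsPRR1 by 0.50 and OsLHY by -0.17, and the KO count was 2 and 1 without OE replicates 1 and 2. Of 14 flowering genes 5 were higher in OE and 6 in KO (median -0.32), and the OE count was 3 with DESeq2, without OE replicate 1 and without KO replicate 1. OsMFT1, related to the florigen genes, had 0.913 and 1.23 CPM in OE, 11.8 and 14.5 in KO, and 3.41 and 3.13 in WT (-3.60). The florigen genes themselves parted, OsRFT1 being higher in KO (-2.03) and OsHd3a in OE (0.97), and the floral-transition gene OsMADS14 was higher in OE by 1.01.

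Markers of other organs were counted to describe the tissue. Of 11 floral and meristem genes 3 passed the filter, 2 higher in OE and 1 in KO, and the summed level was 17.6 and 17.4 CPM in OE and 16.3 and 17.5 in KO. The meristem genes OSH1 and OSH15 and the floral genes DL and OsMADS13 stood at or below 0.12 CPM in both lines. Of 7 root markers 3 were tested and 1, RCc3, was called higher in OE (0 without OE replicate 1, 2 genes without KO replicate 2), at a summed 20.4 and 19.1 CPM in OE and 15.6 and 16.7 in KO, and CRL1 and NRT2.1 had no counts in either line. Of the secondary wall genes OsCesA4 was higher in KO (-1.20) at a mean of 2.25 CPM there, and CESA7 did not pass (edgeR, adjusted p = 0.317). Of 8 leaf mesophyll markers, most of which also belong to the photosynthesis lists, 7 were higher in KO and 0 in OE. Seed storage protein genes, listed after values had been seen, were higher in KO for 18 of 19 tested, each by at least 2-fold, with a summed level of 7.41 and 5.53 CPM in OE, 32.3 and 36.1 in KO, and 6.37 and 4.20 in WT. Prolamin and glutelin genes have near-identical copies, so these are not 18 independent observations, and whether grain material or spilled reads contributed was not tested.

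Genes present in a single line were sought by counts. In OE 38 genes had a mean of at least 1 CPM and no count in either KO library, and in KO 2 genes had no count in either OE library, with the OE libraries being the deeper. Of the 38, 24 also had no count in WT and 3 had a name: OsPR1, OsPR1b and OsEnS-4. The 2 KO genes were OsKS5, a kaurene synthase-like gene, with 3.99 and 5.19 CPM and at least 121-fold higher in KO against 3 counts for the OE pair, and Os06g0254901. Among the 38, 14 loci had counts in the OE lines of both OsPIP2-1 and OsPIP2-7 and none, apart from at most 1 count in the KO of OsPIP2-7, in the other groups. Of these 9 were 2825 to 2997 bases long on 5 chromosomes, at 4.64 to 8.15 CPM in the OsPIP2-1 OE, and 5 were 615 to 1759 bases long on 4 chromosomes, at 1.36 to 8.07 CPM. The 9 are alike in length, and some of the 14 lie close together, such as Os06g0190900 and Os06g0190950. Multiply aligned reads entered the counts, so the same reads may count at several loci. The 14 loci are thus not independent observations. The OE lines share the maize ubiquitin promoter and transformation, and whether reads of the construct align at these loci was not tested. Another 3 loci, Os03g0814200, Os02g0789700 and Os09g0400350, had counts in the OsPIP2-1 OE and in no other group.

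To see whether the difference between OE and KO was shared by the other aquaporin, it was set beside that of OsPIP2-7 OE against OsPIP2-7 KO. The contrasts compare different libraries. The OsPIP2-7 contrast was fitted with all 12 libraries, which share the filter, scaling and estimate of spread, so the 2 results are not fully separate. The OsPIP2-1 calls are those of the 4-library fit. With 12 libraries the OsPIP2-1 contrast called 13459 genes. There 13479 of 24556 genes (54.9%) differed. Called in both were 8215 genes, 63.8% of the calls for OsPIP2-1 and 64.1% of those for OsPIP2-7. Directions were divided nearly evenly, 4059 the same (49.4%) and 4156 opposite, and across 22859 genes, which are not independent replicates, Pearson's r of the differences was -0.055 and Spearman's rho -0.048. The difference of the differences passed for 13326 of 24556 genes (54.3%; edgeR). OsPIP2-1 itself differed by 3.79 here and by -0.38 in the OsPIP2-7 lines, and OsPIP2-7 by -1.71 here and by 3.43 there.

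Some lists that leaned to OE here leaned to KO there, and others did not. In the OsPIP2-7 lines 27.8% of all tested genes were higher in OE and 27.1% in KO. Rboh genes there were 0 higher in OE and 5 in KO of 7 tested, and phenylpropanoid genes 3 and 16 of 31. NAC genes were 25 and 14 of 55, and heat shock genes 20 and 8 of 40. GH2, for example, differed by -4.77 there against 4.60 here, a difference of 9.37 (edgeR, adjusted p = 2.1e-48), and RbohF by -5.90 against 4.51. Seed storage genes were higher in OE for 18 and in KO for 0 of 19 there. Photosystem genes numbered 9 and 11 of 29. Ribosomal protein genes numbered 2 and 61 of 72, and plastid genome genes 3 and 48 of 90, so the lean of these latter lists to KO was present in both experiments. The column headers mark each experiment, with its own WT pair, as a separate set, and what a set stands for is not stated. The labels name no day or batch.

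**Figure D5:**
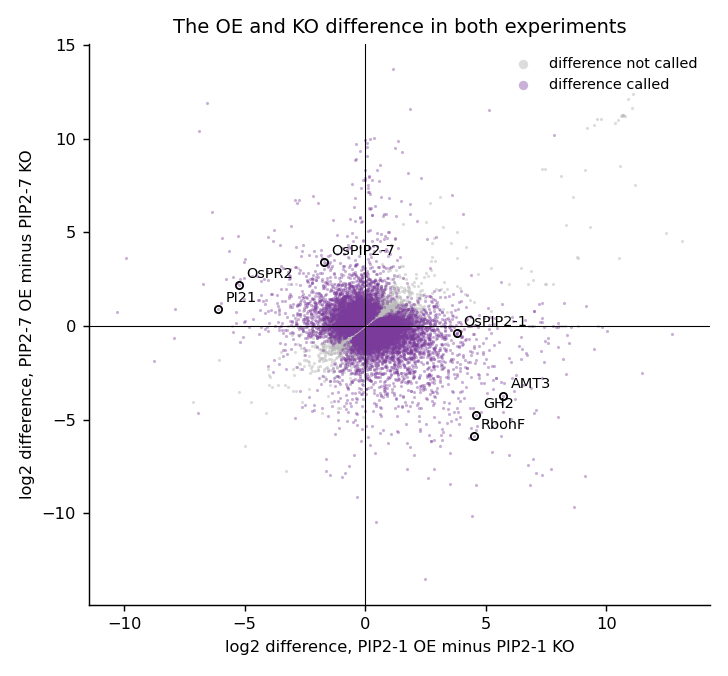
Log2 difference OE minus KO of every gene in the OsPIP2-7 lines (vertical) against that in the OsPIP2-1 lines (horizontal); purple marks the genes whose difference between the experiments was called (13326 over all genes tested there). The cloud shows almost no slope (Pearson's r -0.055), and AMT3, RbohF and GH2 fall at the lower right, higher in OE here and higher in KO there.

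The authors' deposited table for KO over OE holds 22415 tested genes, of which 7692 are marked significant, 5448 higher in OE and 2244 higher in KO. Of these, 6407 were also called here, 6386 in the same direction and 21 in the opposite one. For OsPIP2-7, OsPIP1-3 and RBBI2-1 the authors' deposited table gives log2 ratios of KO over OE of 1.90, -2.63 and 7.14, each with q = 0.00033. For OsHXK1 the authors' deposited table gives -7.24 with q = 0.262. OsZIP9 has q = 0.240 there, and OsRCCR2 a smaller log2 ratio of KO over OE than in the counts, -1.50 (q = 0.0428).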

How the data were processed

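RNA from leaves was sequenced, and the authors deposited a table of unnormalized counts by gene, with a column for each of 12 libraries. Per the file headers they were made with featureCounts 1.4.0 on IRGSP-1.0 with the Ensembl Plants annotation, release 52, on the reverse strand, with multiply aligned reads included and no counting of reads that span more than 1 gene. The log2 ratios in the authors' deposited comparison table come from Cuffdiff 2.2.1 per the submitters' processing notes, which also name Trim Galore, HISAT2 and Cufflinks. Its p-values and q-values are the authors' own, deposited values, used only where credited. Gene names come from the deposited tables.

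Groups were read from the sample titles. The counts of the 4 libraries were fitted in R 4.3.3 with edgeR 4.0.16: filterByExpr, TMM scaling, glmQLFit with robust estimation, glmQLFTest and Benjamini-Hochberg adjustment over all genes tested, at 0.05. Levels are TMM-scaled CPM per library. The SE of a log2 difference was back-calculated from the quasi-likelihood F and is approximate. Tests across both experiments, of the OsPIP2-7 lines and of the WT pairs were fitted with all 12 libraries. The biological coefficient of variation was 3.73%. Replicate counts differed beyond sampling noise (chi-square per degree of freedom 7.24 in OE and 3.66 in KO), so all were kept as separate libraries. These chi-square values are means over genes without TMM scaling and do not describe the typical gene. Abundant genes weigh heavily in them, such as OsMT3a, at 5.19% and 7.12% of counts in the OE pair. Against a group with 0 counts a fold is a lower bound computed with 3 counts for that group. For 1 to 3 counts the ratio is given with its 95% interval (exact, after Clopper and Pearson). These limits hold for counting error alone. List medians stayed the same with such genes set at their bound. The procedure was tested on simulated counts with 1.5-, 2- and 4-fold changes. For OE against KO it recovered 68.2%, 87.7% and 100.0% of them, with 7.18% of calls false. For the difference between the experiments it recovered 57.6%, 74.2% and 92.4%, with 10.8% of calls false. Both false shares lay above the nominal level of the threshold in a single simulated run. At each fold 65 or 66 genes were changed, of 21946 genes for OE against KO and 22700 for the difference. A false share depends on how many genes are changed, and 56.3% of genes were called in the data. The simulated shares therefore do not carry over to the calls reported here.

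Members and gene lists were chosen with earlier results of these data known. Of the lists, 24 pathway and 4 marker lists were taken by gene name and 5 were added after values had been seen. The rule for named genes took all PIP genes, the 12 largest differences in each direction among called, named genes of at least 5 CPM with libraries that do not overlap, up to 4 called members per direction of each list with at least 3 called members, the 4 most abundant called at 2-fold in each direction, and called genes within 250 kb of OsPIP2-1; other genes named were chosen after their values were seen. Alternatives were RLE scaling, no filter, DESeq2 1.42.0, fits of 6 and of 12 libraries, the replicate number as a block, nuclear genes only and each library left out. The smallest of the 4 libraries had 27433035 counts, so 1 CPM stands for 27.4 counts before scaling.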

Additional observations from a re-analysis of the deposited data

Results flagged for a closer look

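The difference between OE and KO was itself different in the OsPIP2-1 and OsPIP2-7 lines for 13326 genes by a test of the difference of the differences (edgeR quasi-likelihood test with Benjamini-Hochberg adjustment, all 12 libraries). That was 54.3% of the genes tested, and 4156 of the 8215 genes called in both experiments had opposite directions. Among the 24 named genes with the largest differences in the OsPIP2-1 lines, 16 were called in the opposite direction in the OsPIP2-7 lines and passed that test, with more than 3 counts in every OE and KO group. For the 9 of them higher in the OsPIP2-1 OE, the difference of the differences was 10.59 for OsAT5, 10.32 for OsSAUR26, 10.13 for OsSub8, 9.64 for OsBDG1, 9.44 for AMT3, 8.87 for OsRCI2-9, 7.96 for OsSPX5, 7.64 for YR48 and 6.40 for GRP. For the 7 higher in the OsPIP2-1 KO it was -7.71 for Cht4, -7.42 for OsPR2, -7.04 for Cht5, -7.01 for PI21, -6.69 for Prol-25, -5.96 for OsPR4 and -5.83 for OsGLP1-1. AMT3, for example, stood at a mean of 3.67 CPM in the OsPIP2-7 OE and 48.2 CPM in the OsPIP2-7 KO. The 24 genes were picked by their OsPIP2-1 difference, which is part of the tested quantity. Passing the test after an opposite call is therefore no separate evidence. Each group is a single pair of libraries, and what set the pairs apart was not tested.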

How the results depend on the processing

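Over all alternatives the genes called numbered 9522 (DESeq2) to 13459 (12 libraries), those higher in OE 5112 to 6987, those higher in KO 4410 to 6508, those called at 2-fold 3292 to 4167, and those whose difference differed between the experiments 11270 to 13346. No gene called in both the reported fit and an alternative changed direction. With the replicate block 12782 genes were called. The labels do not pair same-numbered libraries. Across the tested genes, the deviations of such libraries from their group means had a correlation of 0.00105 between OE and KO. Only 2 pairs of libraries enter this value. Leaving out 1 library gave 38 to 59 genes present in OE only, with 59 without KO replicate 1, and 2 to 7 present in KO only, with 4 and 7 without OE replicates 1 and 2, since fewer libraries then have to be at 0. Of the results for named genes under these alternatives, 2709 kept direction and call and 65 lost the call. Every group is a single pair of libraries, which limits every comparison.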

Other observations

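Diterpenoid phytoalexin genes, listed after values had been seen, were 5 higher in OE and 3 in KO of 8 tested (median 1.499). The summed level of the list went the other way, at 5.63 and 5.83 CPM in OE, 18.8 and 21.5 in KO, and 3.15 and 2.90 in WT. The OE count was 3 with DESeq2 and without OE replicate 2. Those higher in KO were the cyclase gene OsCPS2, at 9.12 and 10.54 CPM against 0.685 and 0.691 in OE, and OsKS5 and OsKS6, which lie beside it on chromosome 2. OsKS6 had 4.02 and 4.15 CPM in KO against 0.0761 and 0.0494 in OE (-5.95; edgeR, adjusted p = 3.6e-14). The cytochrome P450 gene OsCYP76M7 on the same chromosome was higher in OE, at 1.57 and 1.60 against 0.187 and 0.308 CPM.

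Among genes with more than 5 log2 units between the lines and at least 15 CPM in the higher line, 22 were higher in OE and 6 in KO, and 18 of the 28 had no deposited name. They were chosen after their values were seen and their roles are not annotated here. Os03g0782200 had 218 and 232 CPM in KO, 0.152 and 0.296 in OE, and 0 in both WT libraries. Os03g0299700 had 33.2 and 32.7 CPM in OE, no count in KO or WT, and was at least 639-fold higher in OE when 3 counts are taken for the KO pair. Os02g0772100 had 145 and 142 CPM in OE, 0.560 and 0.731 in KO, and 2.65 and 3.34 in WT.

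Others of these loci were at near-zero levels in some lines of both experiments and high in the rest. Os06g0271500 had 75.8 and 76.7 CPM in OE, 0.374 and 0.269 in KO, and 56.5 and 59.4 in WT, and in the OsPIP2-7 lines means of 72.3 in OE, 0.0575 in KO and 0.136 in WT. Os01g0820800 had 26.1 and 23.5 CPM in OE and no count in KO, with a mean of 29.4 in the OsPIP2-7 KO and 21.7 in the OsPIP2-7 OE. Os03g0180500 had 59.4 and 57.9 CPM in OE and at most 0.115 in KO, with a mean of 40.1 in the OsPIP2-7 KO and 0.151 in the OsPIP2-7 OE.

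Among genes above a mean of 200 CPM over both lines, 4 differed by more than 3 log2 units, of which 3 were higher in OE, OsPIP2-1 among them. The other genes were chosen after their values were seen. Os08g0351300, without a deposited name, had 2872 and 3021 CPM in OE, 219.6 and 201 in KO, and 3968 and 3956 in WT (3.81, SE 0.05; edgeR, adjusted p = 5.19e-31), so KO stood apart. OsPOP9 (Os04g0561500) had 701 and 697 CPM in OE, 34.9 and 32.3 in KO, and 251 and 247 in WT (4.38). PIOX (Os12g0448900) was higher in KO, at 459 and 461 CPM against 49.0 and 48.7 in OE and 38.1 and 38.6 in WT (-3.23).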
